A study of Homo sapiens with 3 samples.

Results

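LNCaP cells treated with n-butylidenephthalide (BP) for 24 h were compared with control LNCaP cells across 19208 genes, which are all the genes that 1 symbol of the deposited annotation ties to a transcript cluster of the array. These genes are carried by 20087 of the 33297 transcript clusters deposited for each array. LNCaP is an established human prostate cancer line that responds to androgens, and BP is a phthalide of the herb Angelica sinensis. The series holds 3 Affymetrix Human Gene ST arrays, 1 each for control cells and for cells after 3 h or 24 h in 70 µg/ml BP, all grown in serum-containing medium. The label of the control array gives neither a solvent nor a harvest time, so BP and any change with time or density in culture cannot be told apart. Every value is a deposited log2 value, and every difference is the log2 value at 24 h minus the log2 value of control cells. A difference of at least 1 in either direction, which is 2-fold, was counted. With 1 array per condition there was no replicate check, no test and no p-value, and the counts describe these arrays only.

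Cells that divide make the proteins of DNA replication and of mitosis in waves. Replication genes often carry sites for E2F factors near their starts, and many mitotic genes carry a cell cycle homology region (CHR), a short element through which the DREAM and MuvB complexes bind. When unfolded proteins accumulate in the endoplasmic reticulum (ER), cells make more ER chaperones and more of the transcription factor CHOP. In LNCaP cells androgens maintain a further set of genes, among them the one for prostate-specific antigen.

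On the 24 h array 293 genes (1.53%) had values at least 2-fold above those of control cells and 406 genes (2.11%) had values at least 2-fold below them, while 18509 lay within 2-fold. These 2 shares over all genes are the background for every list of genes described here. They are not matched for level of expression, and the share of genes that were lower rose with the control value. The lists and their members were chosen with earlier results of these data known. Their shares therefore describe the lists and are not a test. The decreases were the larger ones. Of the genes that were lower, 105 were at least 4-fold lower and 12 at least 8-fold lower, against 39 and 3 among the genes that were higher. The threshold cuts a continuous range. CXorf23, with 4.59 on the control array and 5.59 at 24 h, was the last gene counted as higher, and HSN2, with 5.74 in control cells and 6.74 at 24 h, was the first one not counted. At the other end NAAA, with 8.74 in control cells and 7.73 at 24 h, was the last gene counted as lower, and MND1, with 5.04 in control cells and 4.04 at 24 h, was the first one not counted.

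**Figure D1:**
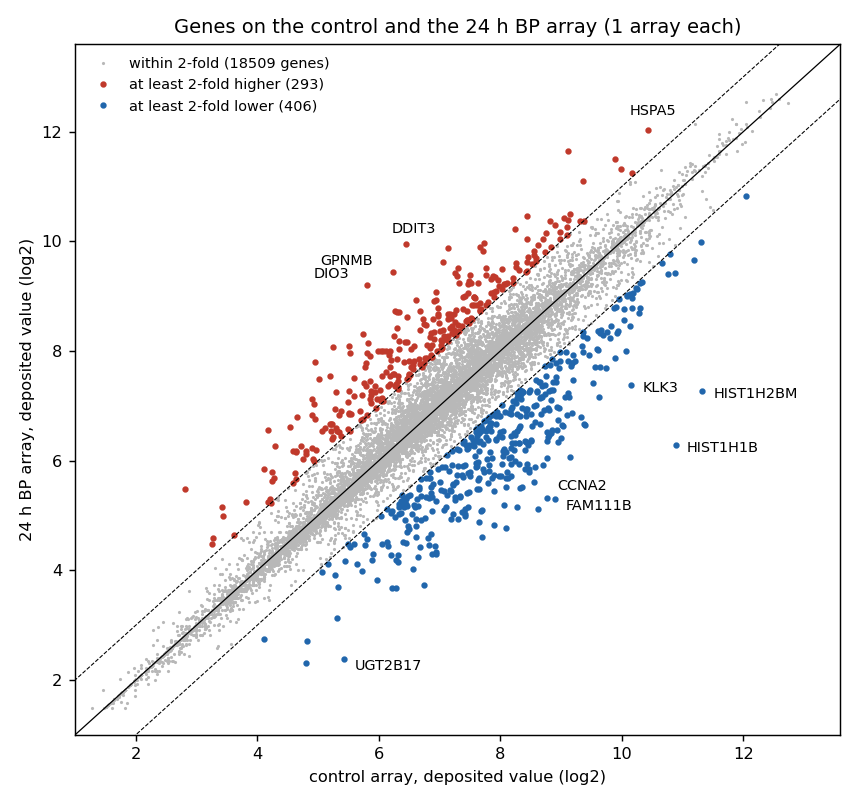
Deposited log2 values of 19208 genes on the control array (x axis) and the 24 h BP array (y axis), 1 point per gene, with the line of equal values and dashed lines at 2-fold. The 406 genes that were lower lie mostly at control values above 6, with HIST1H1B and HIST1H2BM farthest from the line of equal values.

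The count of genes past 2-fold depended on the level of expression. The genes were placed by control value into 5 groups of like size. In the lowest group, up to a value of 4.39, 16 genes were higher and 1 gene was lower. In the highest group, from a value of 7.65, 64 were higher and 246, or 6.41%, were lower. The deposited values of the 2 arrays were exactly equal for 8966 genes (46.7%), and this share was 79.8% in the lowest group and 17.6% in the highest. A difference of exactly 0 therefore means that the deposited values are the same number, and it was most common among dim genes. The median control value of the genes that were lower was 7.94, against 6.68 for those that were higher. The arrays give no detection call, so it is not known which dim genes were above background.

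Most genes that were higher at 24 h already had higher values at 3 h, whereas the genes that were lower at 24 h mostly did not have lower values at 3 h. Of the 293 genes higher at 24 h, 257 had a difference above 0 at 3 h and 30 were already at least 2-fold higher. Of the 406 genes lower at 24 h, 149 had a difference below 0 at 3 h and 1 was already at least 2-fold lower. The median difference at 3 h was 0.41 for the former and 0.05 for the latter. The comparisons at 3 h and 24 h share the control array, so their values stand side by side and are not independent.

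**Figure D2:**
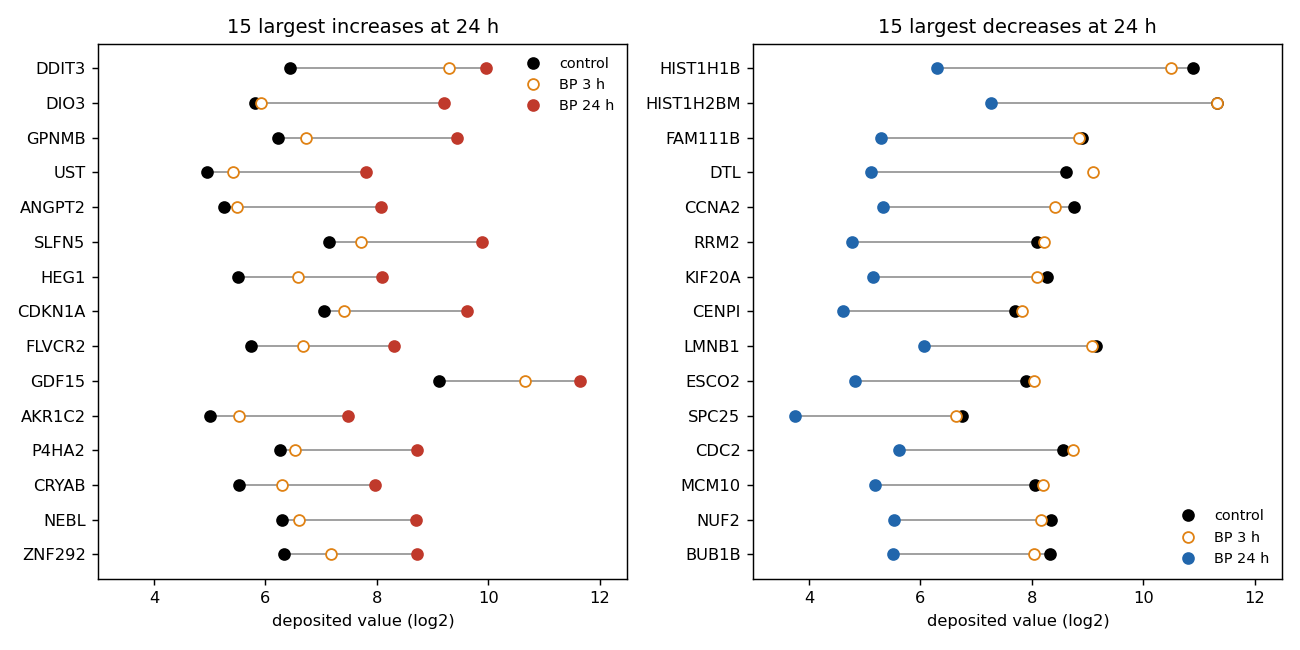
Deposited log2 values (x axis) on the control, 3 h and 24 h arrays for the 15 genes with the largest increases (left) and the 15 with the largest decreases (right) at 24 h among genes above the median level. In the right panel the 3 h points lie beside the control points, while in the left panel the 3 h value of DDIT3 (9.29) lies near its 24 h value (9.95).

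DDIT3, which encodes CHOP, led the increases with values of 6.44 on the control array, 9.29 at 3 h and 9.95 at 24 h, 11.4-fold higher at 24 h. DIO3, the deiodinase that inactivates thyroid hormone, was 5.81 on the control array and 9.21 at 24 h, 10.5-fold higher, but only 5.93 at 3 h. GPNMB, a glycoprotein of lysosomes and melanosomes, was 6.23 in control cells and 9.44 at 24 h. Among the 15 leading increases, 6 lay in none of the lists of genes, namely UST, HEG1, FLVCR2, P4HA2, NEBL and ZNF292. UST, a sulfotransferase that acts on uronic acid in chondroitin and dermatan sulfate, was 7.23-fold higher, and HEG1, a membrane receptor that binds the KRIT1 protein, was 6.04-fold higher. P4HA2, a subunit of collagen prolyl hydroxylase, was 5.50-fold higher, and NEBL, a nebulin relative that binds actin, was 5.34-fold higher. SLFN5, a member of the Schlafen family, was 7.14 in control cells and 9.89 at 24 h. Of the 15 leading decreases 13 lay in the lists, all of them genes of replication, histones, chromosome structure or mitosis, and FAM111B and DTL lay outside. FAM111B, a protease-domain gene, was 8.90 in control cells and 5.30 at 24 h, 12.1-fold lower. DTL, the substrate receptor of the CRL4 ubiquitin ligase that destroys CDT1 in S phase, was 8.62 in control cells and 5.11 at 24 h, 11.4-fold lower.

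Genes of cell division made up the largest group of decreases. Of 301 measured genes in 12 lists of this kind, 175 were at least 2-fold lower, 2 were at least 2-fold higher and the median difference was -1.28, beside a median of 0 over all genes. At 3 h none of the 301 genes was at least 2-fold lower, beside 9 of all 19208 genes, and their median difference was 0.09. The genes that were higher were CDKN1A and STK17A, a death-associated protein kinase that sat in the list of mitotic kinases. In a bulk RNA sample, fewer cells in S phase or mitosis and less of each RNA per cell cannot be told apart.

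Most of the machinery that licenses and fires replication origins was lower, with 20 of 27 genes at least 2-fold lower and a median difference of -2.09. MCM2 to MCM7, the subunits of the ring-shaped replicative helicase, were lower in 6 of 6 cases and within a narrow band, with differences from -2.38 to -2.12. MCM2 was 9.02 on the control array and 6.66 at 24 h, and MCM7 was 9.53 in control cells and 7.42 at 24 h. All 4 GINS subunits, which join the helicase when origins fire, were also past 2-fold, from GINS3 at -1.27 to GINS1 at -2.72. MCM10, which helps the helicase open, was 8.06 in control cells and 5.19 at 24 h, 7.28-fold lower. CDC6, which loads the helicase, was 9.33 in control cells and 6.79 at 24 h, and CDT1, its partner, was 7.41 in control cells and 6.36 at 24 h, only 2.06-fold lower. The subunits of the origin recognition complex covered a range. ORC1L (now ORC1) and ORC6L (now ORC6) differed by -2.30 and -2.09, ORC5L (now ORC5) by -0.88, and ORC2L, ORC3L and ORC4L lay at -0.13, 0.21 and 0.05. CDC7, a kinase of origin firing, differed by -1.80. DBF4, its activating subunit, had the same value on both arrays, but at 3.94 it was the dimmest gene of the list. It fell in the lowest group of control values, where 79.8% of genes had equal values.

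At the replication fork 20 of 32 genes were at least 2-fold lower. PCNA, the sliding clamp, was 9.92 on the control array and 8.34 at 24 h, 2.99-fold lower. Of the clamp loader, RFC3, RFC4 and RFC5 differed by -1.57, -1.12 and -1.55, and RFC1 and RFC2 by -0.48 and -0.52. All 4 genes of the primase and polymerase alpha complex were past 2-fold, with PRIM1 at -2.03, PRIM2 at -1.10, POLA1 at -1.31 and POLA2 at -1.97. The subunits of the leading-strand polymerase differed, since POLE2 differed by -1.74 and the catalytic subunit POLE by 0.15. The largest differences of the list were those of ASF1B, a histone chaperone, at -2.61, of CLSPN, the checkpoint mediator claspin, at -2.40, and of DNA2, a nuclease and helicase of Okazaki fragments, at -2.18. LIG1, which joins Okazaki fragments, lay within 2-fold at -0.47.

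Genes that supply deoxynucleotides had differences in both directions, 7 of 12 of them at least 2-fold lower and none at least 2-fold higher. RRM2, the S-phase small subunit of ribonucleotide reductase, was 8.10 on the control array and 4.77 at 24 h, 10.1-fold lower, and the large subunit RRM1 was 2.30-fold lower. TYMS, thymidylate synthase, and TK1, thymidine kinase, differed by -1.85 and -1.55. RRM2B, the small subunit that p53 induces, was 7.58 in control cells and 8.45 at 24 h, a difference of 0.87 that did not reach 2-fold. DUT, which removes dUTP, had the same value on both arrays.

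Only 20 of 59 listed replication-dependent histone genes had a cluster with 1 symbol. Of these, 6 were at least 2-fold lower. HIST1H1B, a linker histone, was 10.89 on the control array, 10.49 at 3 h and 6.29 at 24 h, 24.2-fold lower and the largest difference of any gene. HIST1H2BM was 11.33 on the control array and 7.28 at 24 h, 16.6-fold lower. HIST2H2BE and HIST1H1A had equal values on both arrays, and HIST1H1C, a linker histone also made outside S phase, differed by -0.76. Histone genes are near-identical copies, so how the probes divide between them is uncertain.

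Among genes of homologous recombination and Fanconi repair, 15 of 30 were at least 2-fold lower. BRIP1 (the BRCA1-associated helicase), EXO1 (a resection nuclease) and RAD51AP1 (a recombination accessory protein) led with -2.61, -2.60 and -2.60. BRCA1 was 7.34 on the control array and 5.35 at 24 h, and BRCA2 was 6.46 in control cells and 4.49 at 24 h. The Fanconi core subunits were uneven, with FANCA and FANCC at -1.13 and -1.12, FANCM and FANCB just short of 2-fold at -0.99 and -0.88, and FANCE, FANCF and FANCL at -0.04, -0.01 and -0.24. RAD52 differed by 0.02.

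Mitotic entry genes were lower in 22 of 28 cases, with a median difference of -1.89. CCNA2 (cyclin A2) was 8.77 on the control array and 5.33 at 24 h, 10.9-fold lower, and CDC2 (now CDK1), the kinase it activates, was 8.56 in control cells and 5.62 at 24 h, 7.70-fold lower. CCNB1 and CCNB2, the mitotic cyclins, were 4.20-fold and 3.99-fold lower. The CDC25 phosphatases, which switch CDK1 on, were not alike, since CDC25A and CDC25C differed by -2.01 and -1.75 and CDC25B by -0.27. WEE1, the kinase that holds CDK1 off, differed by 0.00, or 0.35 as the mean of its clusters. PLK1, AURKA and AURKB, the main mitotic kinases, differed by -2.32, -2.18 and -1.43. The transcription factors of the mitotic program, FOXM1 and MYBL2, differed by -1.45 and -1.53.

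Of the kinesins and spindle genes 25 of 29 were at least 2-fold lower, the highest share of any list. KIF20A, a kinesin of cytokinesis, was 8.27 on the control array and 5.16 at 24 h, 8.66-fold lower. KIF14, another kinesin of cytokinesis, was 6.30-fold lower, KIF15 and KIF11, which keep spindle poles apart, were 6.09-fold and 5.62-fold lower, and ANLN, the scaffold anillin of the cleavage furrow, was 6.17-fold lower. The exceptions were KIF18B, CKAP5, KIF2A and NUMA1, with differences of -0.74 (-1.02 as the mean of its clusters), -0.54, -0.11 and 0. At kinetochores 25 of 36 genes were at least 2-fold lower. The 4 subunits of the NDC80 complex, which grips microtubules, were lower in 4 of 4 cases, with SPC25 at -3.00, NUF2 at -2.83, NDC80 at -2.77 and SPC24 at -1.69. CENPI, a subunit of the inner kinetochore, was 7.70 in control cells and 4.61 at 24 h, 8.56-fold lower. CENPT and CENPC1, which tether the kinetochore to centromeric chromatin, lay at 0 and -0.18, and MIS12, a subunit of the outer kinetochore's base, was the one gene of the list with a difference above 0, at 0.79.

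In the list of the spindle checkpoint and its target, the anaphase-promoting complex (APC/C), 8 of 25 genes were at least 2-fold lower. They included the checkpoint protein MAD2L1 at -2.31, the inhibitor FBXO5 at -1.90, the activator CDC20 at -1.81, securin (PTTG1) at -1.57, separase (ESPL1) at -1.31 and the E2 enzyme UBE2C at -1.54. Other regulators were within 2-fold, with the E2 enzyme UBE2S at -0.72, the checkpoint protein BUB3 at -0.19 and equal values on both arrays for MAD1L1 and ZW10. The 12 measured core subunits of the complex were all within 2-fold, from -0.35 (ANAPC1) to 0.51 (CDC16), with a median of -0.01. FZR1, the activator that works in G1, had the same value on both arrays. The complexes that shape chromosomes also differed from each other. Of 8 condensin subunits 7 were at least 2-fold lower, led by NCAPG at -2.70, and NCAPH2 was at -0.09, whereas 0 of 5 core cohesin genes were past 2-fold, with RAD21 lowest at -0.75. TOP2A (topoisomerase II alpha) differed by -2.68 and its paralog TOP2B by -0.18. LMNB1 (lamin B1) was 9.15 on the control array and 6.06 at 24 h, 8.46-fold lower, LMNB2 differed by -0.88 and LMNA by 0. ESCO2, the acetyltransferase that locks cohesin in S phase, was 8.36-fold lower.

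Fewer of the G1 regulators were past 2-fold, with 9 of 26 lower and 0 higher. SKP2, which directs p27 to destruction, was 8.27 on the control array and 6.54 at 24 h, and CDK2 was 8.23 in control cells and 6.51 at 24 h. CCND1 (cyclin D1) was 8.97 in control cells and 7.70 at 24 h, 2.43-fold lower, CCND3 differed by -0.48 and CCND2 by 0. The activator factors E2F1, E2F2 and E2F3 lay within 2-fold at -0.33, -0.56 and -0.33, while the repressors E2F7 and E2F8, themselves E2F targets, differed by -1.64 and -1.51. RB1 had the same value on both arrays, its relative RBL1 differed by -1.54, or -0.77 as the mean of its clusters, and RBL2 by 0.12. Among CDK inhibitors CDKN1A (p21) was 7.05, 7.42 and 9.63 on the control, 3 h and 24 h arrays, 5.96-fold higher at 24 h. CDKN1B (p27) was 7.80, 8.66 and 8.60, a difference of 0.81 that did not reach 2-fold.

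**Figure D3:**
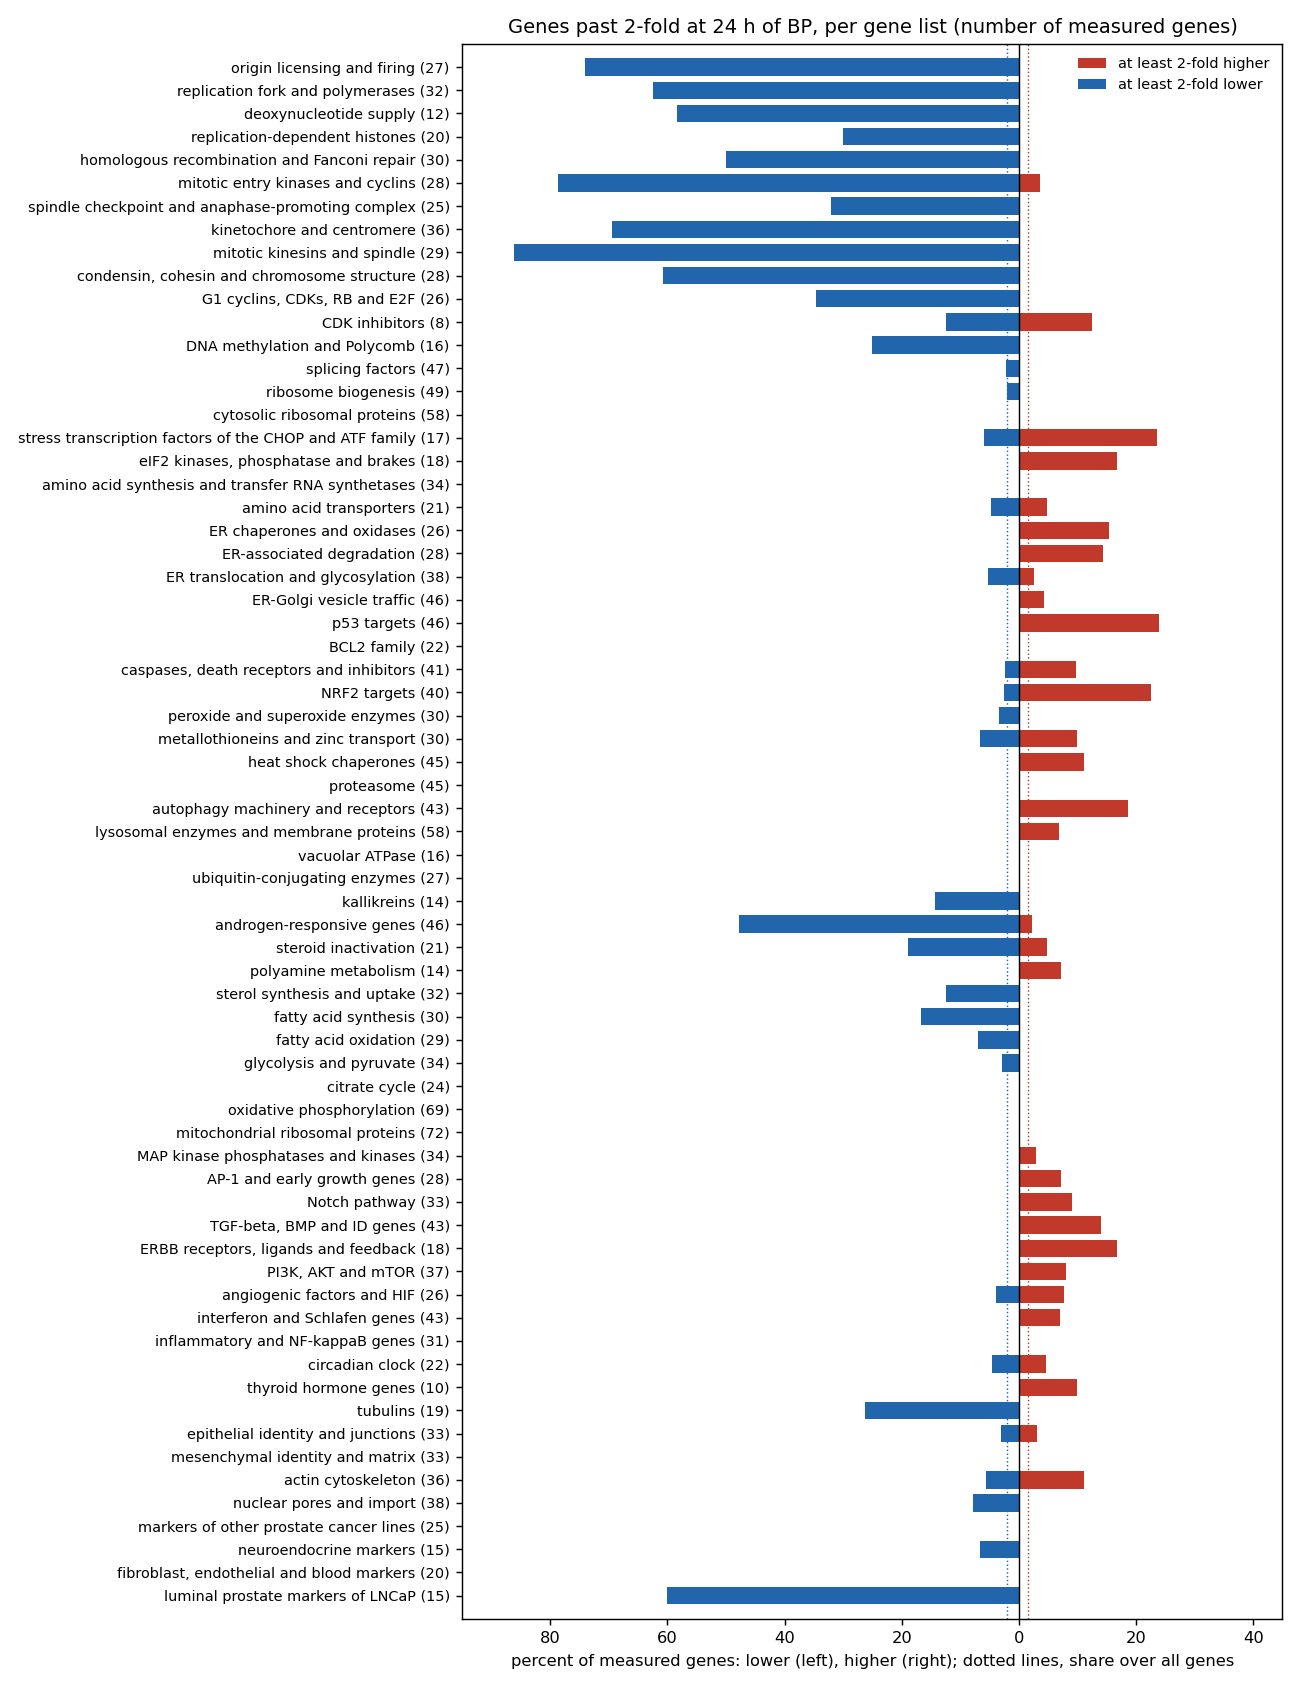
Percent of the measured genes of each of 67 lists that were at least 2-fold lower (blue, left) or higher (red, right) on the 24 h array, with the number of measured genes after each name and dotted lines at the shares over all genes (2.11% lower, 1.53% higher). The lists of replication and mitosis reach farthest to the left, the lists of ribosomal proteins, proteasome and oxidative phosphorylation show no bar, and the luminal prostate markers at the bottom extend to 60% lower.

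The letters near the starts of these genes were examined in promoters from RefSeq (GRCh38.p14), windows of 300 bases from 250 before to 50 after a start, which were found for 13333 of the 19208 genes. For the 3634 genes with several windows the one listed first was used. The CHR (TTTGAA on either strand) was present in 98 of 321 promoters (30.5%) of genes that were at least 2-fold lower, in 25 of 217 (11.5%) of those that were higher and in 11.9% of all 13333. In the list of mitotic kinesins and spindle genes it was present in 20 of 27 promoters (74.1%), and in that of origin licensing genes in 1 of 23. The E2F-like letters (TTTNNCGC on either strand) showed the reverse of that split, in 13 of 23 promoters of licensing genes (56.5%) and in 4 of 27 of the kinesin and spindle list, against 9.09% of all promoters and 70 of 321 (21.8%) of genes that were lower. Within the cell division lists, the CHR was in 39.9% of promoters of genes at least 2-fold lower and in 21.1% of the others. The contrast was smaller for the E2F-like letters, with 29.7% and 22.9%, and for CCAAT, with 60.8% and 51.4%. CCAAT, which may overlap an ERSE, was in 56.7% of promoters of genes that were lower, 39.2% of those that were higher and 36.4% of all. A match of letters is a description and does not show that a factor was bound.

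Promoters of 5 cell division genes are printed because their letters differ with the list they belong to. They were taken from among the genes with large differences in each list that hold the letters and have 1 window. The capitals mark the CHR in KIF14, ANLN and BUB1B and the E2F-like letters in GINS1 and CDC6. The windows are KIF14 at chr1:200620702-200621001 (minus strand), ANLN at chr7:36389612-36389911 (plus strand), BUB1B at chr15:40160819-40161118 (plus strand), GINS1 at chr20:25407423-25407722 (plus strand) and CDC6 at chr17:40287629-40287928 (plus strand). In BUB1B the CHR begins 23 bases before the start, in ANLN it occurs on both strands in adjoining positions 26 and 20 bases before the start, and in KIF14 it begins at base 2 of the transcript. In GINS1 and CDC6 the E2F-like letters begin at bases 6 and 8 of the transcript.
KIF14: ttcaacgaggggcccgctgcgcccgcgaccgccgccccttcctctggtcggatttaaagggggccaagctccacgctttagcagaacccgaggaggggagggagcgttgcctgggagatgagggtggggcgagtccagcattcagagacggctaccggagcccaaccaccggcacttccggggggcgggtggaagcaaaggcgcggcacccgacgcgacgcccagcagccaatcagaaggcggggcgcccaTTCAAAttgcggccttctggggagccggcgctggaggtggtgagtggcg
ANLN: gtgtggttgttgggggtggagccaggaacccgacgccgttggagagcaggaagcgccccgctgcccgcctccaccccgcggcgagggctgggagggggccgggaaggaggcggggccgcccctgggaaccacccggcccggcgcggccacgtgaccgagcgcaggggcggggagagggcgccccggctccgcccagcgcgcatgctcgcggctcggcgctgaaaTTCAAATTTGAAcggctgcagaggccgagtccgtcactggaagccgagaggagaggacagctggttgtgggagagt
BUB1B: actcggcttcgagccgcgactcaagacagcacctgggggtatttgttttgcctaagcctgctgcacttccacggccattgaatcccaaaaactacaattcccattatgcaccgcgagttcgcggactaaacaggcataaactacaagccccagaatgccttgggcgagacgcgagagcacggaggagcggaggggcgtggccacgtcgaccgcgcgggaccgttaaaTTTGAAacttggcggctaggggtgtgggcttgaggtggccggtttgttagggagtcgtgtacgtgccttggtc
GINS1: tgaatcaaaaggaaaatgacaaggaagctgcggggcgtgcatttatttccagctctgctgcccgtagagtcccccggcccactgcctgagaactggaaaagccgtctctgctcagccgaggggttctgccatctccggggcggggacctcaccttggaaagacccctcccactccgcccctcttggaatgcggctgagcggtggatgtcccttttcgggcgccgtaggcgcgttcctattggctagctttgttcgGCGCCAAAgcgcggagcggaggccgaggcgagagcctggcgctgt
CDC6: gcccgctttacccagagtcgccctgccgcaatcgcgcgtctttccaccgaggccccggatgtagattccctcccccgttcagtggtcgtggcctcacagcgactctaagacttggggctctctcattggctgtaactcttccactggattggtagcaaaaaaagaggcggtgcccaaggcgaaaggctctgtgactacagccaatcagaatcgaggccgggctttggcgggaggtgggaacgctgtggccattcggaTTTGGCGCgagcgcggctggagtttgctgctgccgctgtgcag

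**Figure D4:**
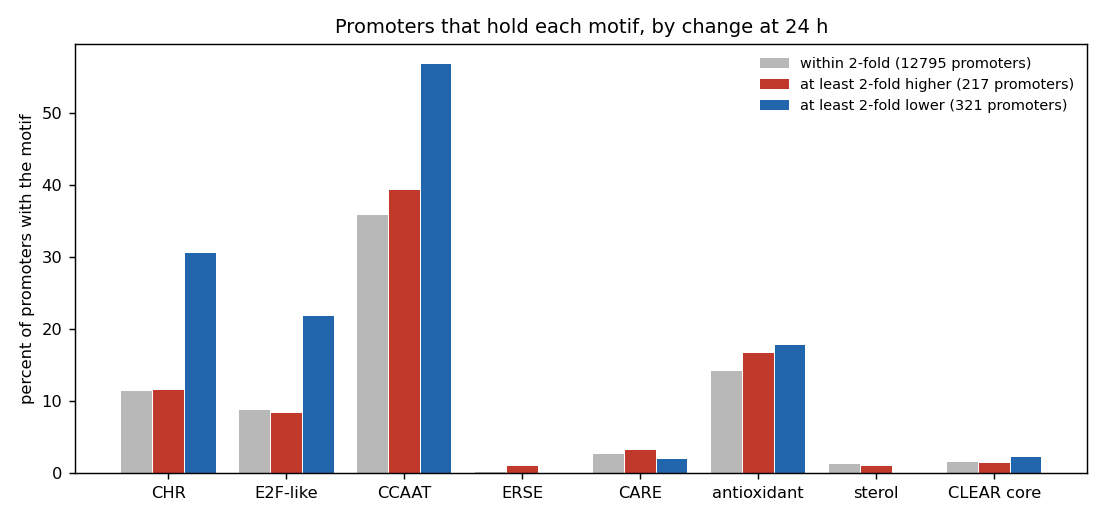
Percent of promoters (y axis) that hold each of 8 motifs (x axis) on either strand, for genes within 2-fold (grey), at least 2-fold higher (red) and at least 2-fold lower (blue) at 24 h. The blue bars stand above the others for the CHR (30.5%), the E2F-like letters (21.8%) and CCAAT (56.7%). They also stand slightly above for the antioxidant letters (TGACNNNGC), at 17.8% against 16.6% (red) and 14.2% (grey). For the CLEAR core (TCACGTGA) they do so at 2.18% against 1.38% (red) and 1.5% (grey). The CARE letters (TGATGNAA) were in 1.87%, against 3.23% (red) and 2.59% (grey).

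DNA methylation and Polycomb genes were lower in 4 of 16 cases. HELLS, a chromatin remodeler needed for DNA methylation, was 5.16-fold lower, and DNMT1 and UHRF1, which copy methylation after replication, were 2.64-fold and 2.49-fold lower. DNMT3A, DNMT3B and EED had equal values on both arrays, and EZH2 differed by -0.31.

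Several large machines of the cell lay within 2-fold on these arrays. None of 58 cytosolic ribosomal protein genes was past the threshold and their differences spanned -0.50 to 0.28. The same held for 72 mitochondrial ribosomal proteins, 69 genes of oxidative phosphorylation and 24 of the citrate cycle. It also held for 45 genes of the proteasome, 16 of the vacuolar ATPase and 27 ubiquitin-conjugating enzymes. That list of enzymes left out UBE2C, which is described above among the genes at least 2-fold lower. Splicing factors and ribosome biogenesis genes had 1 gene each past 2-fold, HNRNPD at -1.12 and LYAR at -1.05, but their medians were -0.29 and -0.16. Among 49 biogenesis genes 38 had a difference below 0 and 8 above 0.

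**Figure D5:**
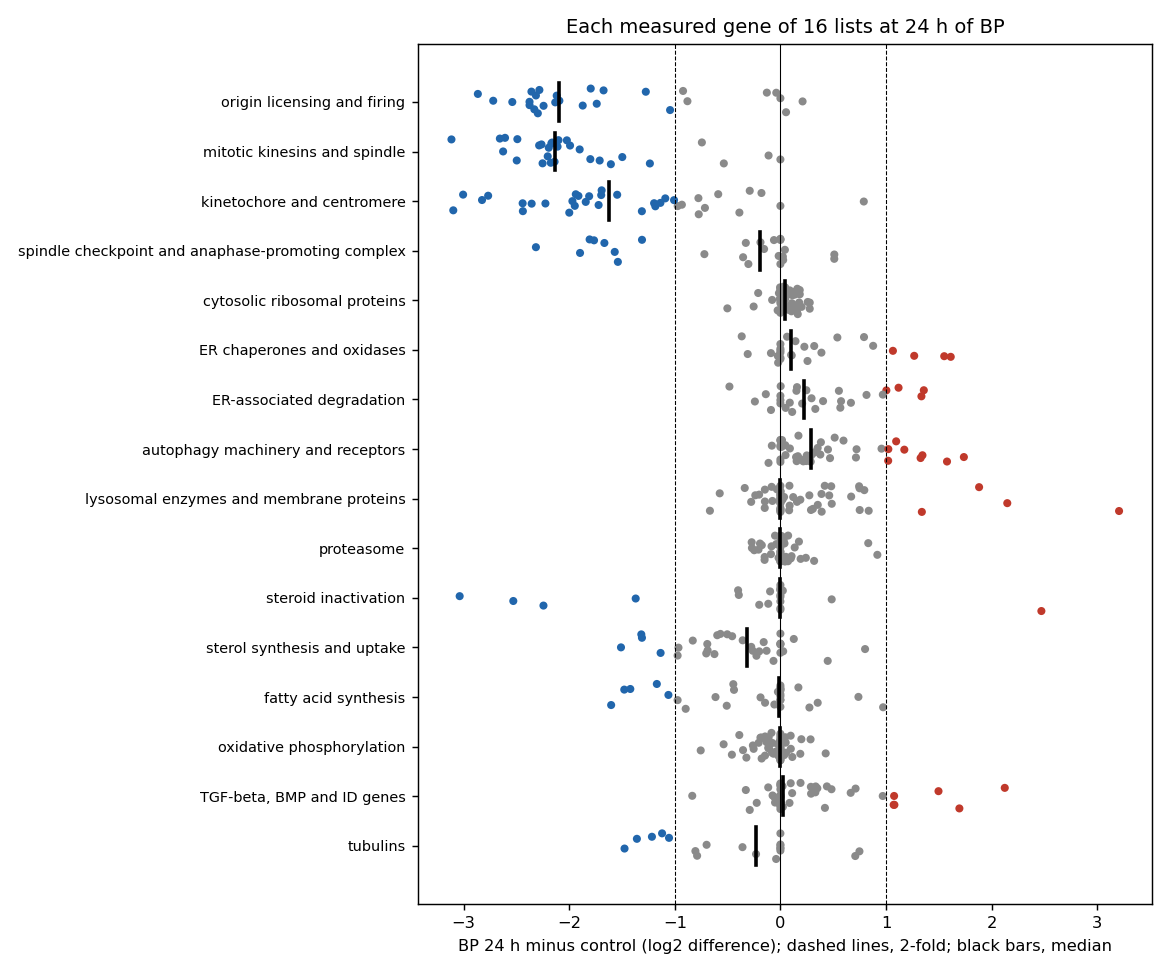
Log2 differences (24 h BP minus control, x axis) of every measured gene of 16 lists, 1 point per gene, with the median as a black bar and dashed lines at 2-fold. Of the licensing and kinesin lists 20 of 27 and 25 of 29 points lie to the left of the 2-fold line, of the checkpoint list 8 of 25 do, and the ribosomal protein and proteasome lists cluster near 0.

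Of 228 genes in the ER and integrated stress lists, 19 were at least 2-fold higher and 4 were lower by as much. Of the stress transcription factors, NFIL3 was 6.78, 8.02 and 8.47 and ATF3 was 5.75, 7.16 and 7.41 on the control, 3 h and 24 h arrays, 3.22-fold and 3.17-fold higher at 24 h. ATF4, the factor whose translation is favoured when eIF2 is phosphorylated, differed by 0.32, XBP1 by 0.66 and ATF5 by 0, while ATF6, a membrane sensor of which a fragment acts in the nucleus, was 2.28-fold higher. CREB3L4, an ER-bound factor made in prostate, was 7.39 on the control array and 5.90 at 24 h, 2.81-fold lower. The IRE1 gene ERN1 was 7.27 in control cells and 8.17 at 24 h, a difference of 0.90 that did not reach 2-fold. The publication lists ERN1 as more than 2-fold higher at 24 h. EIF2AK3 (PERK) differed by 0.52. Of the list of eIF2 kinases and brakes 3 of 18 were at least 2-fold higher, DDIT4 (REDD1), an inhibitor of mTORC1, at 1.49, TRIB3, a pseudokinase that CHOP induces, at 1.29 and PPP1R15A (GADD34), which brings a phosphatase to eIF2, at 1.28.

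ER chaperones were higher for a few genes only, 4 of 26. HSPA5 (BiP), the master chaperone of the ER lumen, was 10.42, 10.73 and 12.04 on the control, 3 h and 24 h arrays, 3.06-fold higher at 24 h. ERO1LB and ERO1L, the oxidases that recharge disulfide isomerases, were 2.93-fold and 2.09-fold higher, and DNAJB9, a cochaperone of BiP, was 2.41-fold higher. The other abundant chaperones did not share this, with HSP90B1 (GRP94) at 0.26, CANX (calnexin) at 0.32, P4HB (PDI) at 0.11 and equal values on both arrays for CALR (calreticulin) and PDIA6. Retrotranslocation and degradation genes were higher in 4 of 28 cases, with SEL1L, the scaffold of the HRD1 ligase, at 1.36, RNF185, a membrane ubiquitin ligase, at 1.34, EDEM1, a mannosidase-like lectin, at 1.12 and HERPUD1 at 1.00. VCP, the ATPase that pulls proteins out, had the same value on both arrays. In vesicle traffic the coat subunit SEC24D was 6.67 on the control array and 8.39 at 24 h and differed from its relatives SEC24A, SEC24B and SEC24C, which lay at 0.14, 0.02 and 0.17. MCFD2, a cargo receptor subunit, was 2.39-fold higher.

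The ER stress element (ERSE, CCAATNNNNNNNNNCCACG on either strand) was found in only 16 of 13333 promoters, 14 of them of genes within 2-fold and 2 of genes at least 2-fold higher. Of the 16, 6 belong to the 25 promoters of ER chaperones and oxidases. The HSPA5 window, at chr9:125241294-125241593 (minus strand), is printed as the ERSE-bearing promoter of the gene with the largest difference in that list, with the element in capitals. It begins 66 bases before the start.
HSPA5: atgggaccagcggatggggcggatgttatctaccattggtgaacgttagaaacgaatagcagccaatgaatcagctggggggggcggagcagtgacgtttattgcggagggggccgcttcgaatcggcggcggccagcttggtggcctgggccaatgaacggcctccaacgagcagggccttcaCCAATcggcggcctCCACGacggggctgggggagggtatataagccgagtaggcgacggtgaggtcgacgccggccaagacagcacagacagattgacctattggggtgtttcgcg

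Many genes of amino acid supply are known targets of ATF4. None of 34 genes of amino acid synthesis and tRNA charging was past 2-fold and their median was 0.01. ASNS (asparagine synthetase) differed by 0.00, PSAT1 and PHGDH of serine synthesis differed by -0.31 and -0.40, and SARS, seryl-tRNA synthetase, was highest at 0.87. Of 21 transporters 1 was at least 2-fold higher, SLC7A11, the cystine carrier, at 1.33, and its partner SLC3A2 differed by 0.92. SLC38A4, a carrier of neutral amino acids, was 2.41-fold lower. In the hexosamine pathway GFPT1, the first enzyme, was 9.15 on the control array and 10.50 at 24 h, 2.55-fold higher, while UAP1, the last enzyme and an androgen-responsive gene, was 9.36 in control cells and 7.98 at 24 h, 2.61-fold lower.

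Targets of p53 were at least 2-fold higher in 11 of 46 cases and lower in 0. Next to CDKN1A stood GDF15, a secreted stress cytokine, at 9.12 on the control array and 11.65 at 24 h, GADD45A, a damage-induced gene, at 5.80, 7.57 and 7.97 on the 3 arrays, and TP53I3, a quinone reductase, at 6.34 in control cells and 8.18 at 24 h. MDM2, the ligase that degrades p53, was 2.08-fold higher. Some targets showed no difference, as BBC3 (PUMA), CD82 and TRIAP1 had equal values on both arrays and BAX differed by 0.01. None of 22 BCL2 family genes was past 2-fold, BMF being highest at 0.66 and BCL2 at -0.01. Of caspases, CASP4 was 2.54-fold higher, CASP8 differed by 0.56 and CASP9 by 0. The PARP family was divided. PARP4, the vault-associated member, was 7.49 in control cells and 9.28 at 24 h, 3.47-fold higher, and PARP1, the main damage sensor, was 9.60 in control cells and 8.04 at 24 h, 2.95-fold lower. TNFRSF21 (death receptor 6) was 2.78-fold higher, and TNFRSF10D, a decoy receptor of TRAIL, was 8.26, 6.92 and 9.54 on the 3 arrays.

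Targets of NRF2, the factor that answers oxidants and electrophiles, were at least 2-fold higher in 9 of 40 cases and lower in 1, the exporter ABCC4 at -1.36. AKR1C2 was 5.01 on the control array and 7.48 at 24 h, 5.54-fold higher, and HMOX1 (heme oxygenase) was 6.46 in control cells and 8.61 at 24 h, 4.44-fold higher. GCLM and GCLC, the subunits of the enzyme that limits glutathione synthesis, were 3.64-fold and 2.48-fold higher, and SRXN1 (sulfiredoxin) was 3.03-fold higher (a difference of 0.80 as the mean of its clusters). NQO1, a common marker of NRF2, did not reach the threshold at 0.63, and TXN lay at 0.01. In the list of peroxide and superoxide enzymes 1 gene was past 2-fold, TXNIP, which was 10.03, 8.93 and 8.76 on the 3 arrays. It is a thioredoxin-binding arrestin and not such an enzyme. Catalase (CAT) differed by -0.83.

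Metallothioneins were higher for MT1F, MT1G and MT2A, at 1.88, 1.60 and 1.08, and their values at 3 h were at least as high, 9.50 against 9.38 for MT1F, 11.52 against 11.49 for MT1G and 11.65 against 11.24 for MT2A. MT1A, MT1E and MT3 had equal values on the control and 24 h arrays, and the genes of this family are similar enough in sequence for probes to be shared. Of the zinc transporters in the same list SLC30A4 and SLC39A8 were lower. SLC30A4, an exporter into vesicles, was 10.13 on the control array and 8.46 at 24 h, 3.18-fold lower, and SLC39A8, an importer, was 2.53-fold lower. Of 45 heat shock genes 5 were at least 2-fold higher, the small chaperones CRYAB at 2.44 and HSPB8 at 1.60 and the HSP70 and HSP40 relatives DNAJB4, HSPA4L and HSPA13 at 1.43, 1.40 and 1.31. The classical heat shock genes DNAJB1 and HSPH1 lay at 0.36 and 0.08, and the 8 subunits of the cytosolic chaperonin had a median of -0.32, with none past 2-fold.

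Autophagy genes were at least 2-fold higher in 8 of 43 cases and lower in 0. The receptors that tag cargo were among them, SQSTM1 (p62) at 9.37 on the control array and 11.11 at 24 h, OPTN (optineurin) at 5.52 in control cells and 6.86 at 24 h and NBR1 at 7.51 in control cells and 8.61 at 24 h. RB1CC1 (FIP200), the scaffold of the initiating kinase, was 2.98-fold higher, while the kinases ULK1 and ULK2 lay at 0.01 and 0.15. WIPI1, which binds the growing membrane, was 2.51-fold higher, and WIPI2 had the same value on both arrays. Of the ATG8 proteins, GABARAPL1 was 2.26-fold higher and MAP1LC3B (LC3B) differed by 0.72. A cluster annotated to MAP1LC3B2, a near-identical copy of LC3B named here after its value was seen, differed by 2.31, so the clusters of this pair differed from each other. The ATG5, ATG7 and ATG12 genes of the conjugation system lay at 0.29, 0.05 and 0.

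In lysosomes 4 of 58 genes were at least 2-fold higher. Besides GPNMB these were LAMP3, an inducible membrane glycoprotein, at 4.66 on the control array and 6.80 at 24 h, MANBA, beta-mannosidase, at 6.12 in control cells and 8.00 at 24 h, and NEU1, a sialidase, at 7.96 in control cells and 9.30 at 24 h. The constitutive LAMP1 and LAMP2 lay at 0.31 and 0.16, and the cathepsins CTSD, CTSB and CTSL1 at 0.49, 0.19 and 0.29. Of the factors that control lysosomal genes, TFE3 differed by 0.75, TFEB by -0.15 and MITF by 0. The CLEAR core (TCACGTGA, a palindrome) was in 6 of 39 lysosomal promoters (15.4%) and in 1.52% of all. The median difference of lysosomal genes was 0 both with and without it, and it was in 1.38% of promoters of genes at least 2-fold higher.

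Many genes of the androgen program were lower. Of 46 androgen-responsive genes 22 were at least 2-fold lower and 1 was higher, with a median difference of -0.87. KLK3, prostate-specific antigen, was 10.16, 10.05 and 7.38 on the 3 arrays, 6.85-fold lower at 24 h, and KLK2 was 3.97-fold lower. KLK2 and KLK3 are close copies, and the 12 other measured genes of the kallikrein list lay within 2-fold. SLC45A3 (prostein) was 9.62 on the control array and 7.17 at 24 h, and PMEPA1, an inhibitor of TGF-beta signaling, was 8.96 in control cells and 6.75 at 24 h. HOXB13, a homeobox factor of prostate, was 2.41-fold lower, while FOXA1, a pioneer factor, differed by -0.61. Some members of this list are also genes of cell division, as ATAD2 (-2.75), CDC6 and CENPN (-1.94). Not every member was lower, with NDRG1 at 0, KRT8 at 0.94 and TMEM140 at 2.05.

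The cell type in the labels was checked on markers. The 15 measured luminal markers of LNCaP had control values from 7.42 to 10.62, and 9 of them were at least 2-fold lower at 24 h. None of 25 markers of other prostate cancer lines, with control values from 2.82 to 7.60, and none of 20 markers of fibroblasts, endothelium and blood was past 2-fold. The latter had control values from 2.08 to 6.86 and values at 24 h from 2.08 to 7.04. CHGA, SYP and NCAM1, which define neuroendocrine cells, had equal values on both arrays. SYT4, a synaptotagmin in the neuroendocrine list, was 8.94 on the control array and 6.98 at 24 h, 3.89-fold lower.

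Enzymes that inactivate androgens lay on both sides. The UGT2B enzymes attach glucuronic acid to androgens, and UGT2B17, UGT2B28, UGT2B10 and UGT2B4 were 8.21-fold, 5.77-fold, 4.74-fold and 2.59-fold lower, while UGT2B7 had the same value on both arrays. UGT2B17 was 5.42 on the control array, 5.14 at 3 h and 2.39 at 24 h. AKR1C2, which reduces dihydrotestosterone, was 5.54-fold higher, AKR1C3 differed by 0.49 and AKR1C1 by 0.02. Members of each of these families are alike in sequence, and the division of signal between them is uncertain. SRD5A1, the reductase that makes dihydrotestosterone, lay at -0.11. In polyamine metabolism SAT1, the acetyltransferase that starts breakdown, was 8.82, 9.57 and 10.38 on the 3 arrays, 2.95-fold higher at 24 h, whereas ODC1, the first enzyme of synthesis, differed by -0.11.

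Lipid synthesis was lower at some steps. In sterol synthesis and uptake 4 of 32 genes were at least 2-fold lower and 23 had a difference below 0, with a median of -0.32. Among these were EBP, a sterol isomerase, at 8.32 on the control array and 6.81 at 24 h, and TMEM97, a sterol-binding membrane protein, at 9.65 in control cells and 8.34 at 24 h. HMGCS1, an early enzyme of the pathway, differed by -0.50. In fatty acid synthesis 5 of 30 genes were lower, ACLY at -1.06, ACACA at -1.17, FASN at -1.42, ACSL3 at -1.48 and the desaturase FADS2 at -1.60. The median of this list was -0.01, and 10 of its genes had equal values on both arrays. FASN was 9.76 in control cells and 8.34 at 24 h. The master factor SREBF1 was just short of 2-fold at -0.97, and SCD, the stearoyl desaturase, differed by -0.44, or -0.22 as the mean of its clusters. ACSL3 and UAP1 belong to the androgen-responsive list as well. The sterol element (TCACNCCAC on either strand) was in 0 of 321 promoters of genes that were lower and in 1.16% of all promoters. It was also in only 1 of 24 promoters of the sterol list and 0 of 25 of the fatty acid synthesis list, so letters this rare cannot describe these genes.

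Fewer genes of fuel breakdown were past 2-fold. Of 29 genes of fatty acid oxidation 2 were lower, among them CPT1A, the gate of mitochondrial import, at 9.34 on the control array and 8.09 at 24 h. In glycolysis only the sugar transporter SLC2A12 was past 2-fold, at -1.10. LDHA, lactate dehydrogenase, was 11.51 in control cells and 10.58 at 24 h, a difference of -0.93, and GAPDH differed by -0.21. The 2 subunits of the mitochondrial pyruvate carrier pointed in opposite directions within 2-fold, BRP44L (now MPC1) at 0.86 and BRP44 (now MPC2) at -0.91.

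Of 325 genes in the signaling lists, 25 were at least 2-fold higher and 2 were lower by as much. Several of these had higher values at 3 h than at 24 h. DUSP1, a phosphatase that switches off MAP kinases, was 7.74, 10.79 and 9.97 on the control, 3 h and 24 h arrays. The Notch-responsive repressors HES1 and HEY1 were 6.31, 8.93 and 7.46 and, respectively, 5.23, 7.57 and 6.66, still 2.23-fold and 2.71-fold higher at 24 h. JUN was 7.30, 9.32 and 8.48, KLF4, a factor of growth arrest, was 5.87, 7.47 and 7.20, and FOS, EGR1 and NR4A1 had equal values on the control and 24 h arrays. ID2, ID1 and ID3, inhibitors of basic helix-loop-helix factors, were 4.36-fold, 2.10-fold and 2.11-fold higher at 24 h. SMAD1, which carries BMP signals, was 6.89, 7.80 and 8.58, and SKIL, a repressor of SMADs, was 2.82-fold higher.

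ADAM17, the protease that sheds growth factors and Notch, was 6.19 on the control array and 7.99 at 24 h, 3.50-fold higher. HBEGF, a growth factor it sheds, was 6.06 in control cells and 7.55 at 24 h, and ERRFI1, a feedback inhibitor of EGFR, was 7.90 in control cells and 9.07 at 24 h, and EGF itself was 2.02-fold higher, while EGFR, ERBB2 and ERBB4 had equal values on both arrays. RRAGD and RRAGC, GTPases that bring mTORC1 to lysosomes, were 2.83-fold and 2.13-fold higher, against equal values for RRAGA and RRAGB. RICTOR, of mTORC2, was at 1.00. VEGFA was 7.32, 8.19 and 9.23 on the 3 arrays, and ANGPT2 (angiopoietin 2) was 5.25, 5.49 and 8.07, 7.09-fold higher at 24 h. In the same list of angiogenic factors and HIF, CA9 and ANGPTL4 lay at 0, CA12 at 0.89 and ADM at 0.65, and NRP1, a coreceptor of VEGF, was 2.56-fold lower. GBP2 and IRF1 were 3.81-fold and 2.36-fold higher, but IFIT1, MX1 and OAS1, the usual interferon genes, had equal values on both arrays, and none of 31 NF-kappaB genes was past 2-fold. NR1D2, a repressor of the circadian clock, was 2.66-fold higher.

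Of 13 alpha and beta tubulins 3 were at least 2-fold lower. TUBB2C (now TUBB4B) was 10.76 on the control array and 9.40 at 24 h, TUBB was 12.04 in control cells and 10.83 at 24 h and TUBA1B was 10.18 in control cells and 9.06 at 24 h. TUBG1, which nucleates microtubules, was 2.08-fold lower while TUBG2 differed by 0.75, and STMN1 (stathmin), which destabilizes microtubules, was 2.78-fold lower. Some actin genes were higher, ACTA2 at 1.47, filamin A (FLNA) at 1.36, zyxin (ZYX) at 1.19 and the myosin heavy chain MYH9 at 1.07, whereas TAGLN2 was 2.03-fold lower, ACTB lay at 0.10 and DIAPH3, a formin, was 4.74-fold lower. Nuclear transport genes had 3 of 38 lower, KPNA2 (importin alpha) at 11.18 in control cells and 9.67 at 24 h, RANBP1 at 9.93 in control cells and 8.37 at 24 h and NUP93 at 9.81 in control cells and 8.24 at 24 h. That share, 7.89%, is near the 6.41% of all genes with control values from 7.65, and the median control value of the list was 8.53. In the list of epithelial identity 1 of 33 genes was higher and 1 was lower, with ELF3, an epithelial ETS factor, 3.01-fold higher, CLDN8, a claudin, 2.98-fold lower and CDH1 (E-cadherin) at 0.36. None of 33 mesenchymal genes was past 2-fold, FN1 (fibronectin) being lowest at -0.93.

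Outside the 63 lists of this kind stood 203 of the genes that were higher and 172 of those that were lower. The genes named in this paragraph were chosen after their values were seen. Several were cell cycle genes that no list held, as ARHGAP11A at -2.79, DEPDC1 at -2.57, ERCC6L at -2.55 and the checkpoint kinase CHEK1 at -1.89. Surface proteins and signaling genes included TMEFF2, a transmembrane protein of prostate, at 8.57 on the control array and 5.89 at 24 h, TM4SF1, a tetraspanin relative, at 8.10 in control cells and 5.53 at 24 h, KCNN2, a calcium-activated potassium channel, at 9.10 in control cells and 6.83 at 24 h, IGF1R, the insulin-like growth factor receptor, at 8.25 in control cells and 6.33 at 24 h (a difference of -2.02 as the mean of its clusters), and ETV1, an ETS factor that is rearranged in LNCaP, at 9.13 in control cells and 7.17 at 24 h. MAOA, monoamine oxidase A, was 2.88-fold lower. Among increases were NUCB2 (nucleobindin 2) at 7.72 in control cells and 9.83 at 24 h, IFRD1 at 7.29 in control cells and 9.37 at 24 h, GTPBP2 at 8.25 in control cells and 10.22 at 24 h, the ubiquitin ligase NEDD4 at 4.94 in control cells and 7.03 at 24 h and CLU (clusterin), an extracellular chaperone, at 7.23 in control cells and 8.68 at 24 h.

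One microRNA gene was also past 2-fold. The cluster annotated to MIRN21 (now MIR21) at 17q23.1 was 4.72 on the control array, 5.29 at 3 h and 6.27 at 24 h, 2.94-fold higher at 24 h. MIRN34A, the only other microRNA gene with 1 symbol, had the same value on all 3 arrays. The array reads the locus and not the mature arm, so no level of the mature RNA is given. The mature sequence from RefSeq, at chr17:59841273-59841294 (GRCh38.p14, plus strand), is printed with its seed, bases 2 to 8, in capitals.
hsa-miR-21-5p: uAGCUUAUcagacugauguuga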

How the data were processed

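RNA was taken from control LNCaP cultures and after 3 h or 24 h in 70 µg/ml BP, and was measured on Affymetrix Human Gene ST arrays, 1 per condition. The deposited values are log2 expression values per transcript cluster, made by the authors. The published methods describe signals scaled to the median of each chip, whereas RMA and Affymetrix Expression Console appear, with no version, in the processing notes of the submitters, and which of them gave the deposited values is not settled. The medians over all 33297 clusters were 5.48 for control, 5.46 at 3 h and 5.48 at 24 h, and no further scaling was applied. The files also hold the authors' own comparisons (a log ratio and a fold without sign), which were not used. The number of arrays limits the precision, and no test was possible.

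Clusters with 1 gene symbol were kept. For the 627 genes with several such clusters the one whose mean of the 3 arrays was highest stood for the gene. The difference was the 24 h value minus the control value, and a fold is 2 to the power of its size. Lists of genes (67 in all, 63 without markers of other cell types) were written by hand and matched by symbol or accession. The members and lists were chosen with earlier results of these data known. Current gene names were taken for 17015 of 19208 genes from a RefSeq table (GRCh38.p14), used for names only, and promoter and microRNA sequences from RefSeq tables of the same build. Genes named are the 15 with the largest increases and the 15 with the largest decreases past 2-fold among genes above the median level, the 4 members of each list with the largest differences, members needed to describe a list by its subunits or roles, genes the publication names, and genes beside the threshold. Genes outside the lists that were chosen after their values were seen are named as such. Python 3.11.15, numpy 2.4.6, pandas 2.3.3 and matplotlib 3.10.9 were used, and the counting scripts were tested on simulated data. Alternatives were median, 75th percentile and quantile scaling, the mean of a gene's clusters, genes above the median level, thresholds of 1.5-fold and 3-fold, and other sets of clusters. Some members of the lists are counted but not reported here by name.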

Additional observations from a re-analysis of the deposited data

Results flagged for a closer look

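At 24 h and at 3 h 2 genes were past 2-fold in opposite directions. HIST1H2AJ, a core histone gene, was 4.81 on the control array, 5.85 at 3 h and 2.30 at 24 h, a difference of -2.50 at 24 h. TNFRSF10D, a decoy receptor of TRAIL, was 8.26 on the control array, 6.92 at 3 h and 9.54 at 24 h, a difference of 1.28 at 24 h. Both times share the control array and have 1 array each, so the difference between the times was not tested.

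Transcript clusters that carry no gene symbol or several were outside the comparison, and at 24 h 340 of them were higher and 178 were lower by 2-fold or more. Among 11306 clusters with no symbol, 2.62% were higher and 1.25% were lower, with differences from -4.12 to 5.36. Among 1904 clusters with several symbols, 2.31% were higher and 1.94% were lower.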

How the results depend on the processing

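At 2-fold, 293 genes were counted as higher and 406 as lower, so that 41.9% of the genes counted were higher. At a 1.5-fold threshold the counts were 862 and 776 (52.6% higher), and at 3-fold 88 and 191 (31.5% higher). Over all transcript clusters 661 were higher and 599 lower (52.5% higher). Median centring gave 291 and 407, 75th percentile centring 273 and 421, quantile normalization 282 and 417, the mean of a gene's clusters 289 and 404, genes above the median level 272 and 382, every cluster with 1 symbol 321 and 421, and genes with unequal values 293 and 406. No median of a list of genes shifted by more than 0.1 under the 3 scalings or the mean of clusters, and 20 of 67 did when only genes above the median level were kept. Of 497 genes that the naming rules selected, 6 shifted by more than 0.1 with the mean of clusters: IGF1R to -2.02, KIF18B to -1.02, RBL1 to -0.77, SCD to -0.22, SRXN1 to 0.80 and WEE1 to 0.35. No paired analysis was possible because each condition has 1 array. The counts describe 3 arrays, and BP, solvent and time in culture cannot be told apart.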

Other observations

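Several clusters that carry the symbols of near-identical genes, and so belong to no single gene, had large differences, and they are described after their values were seen. Clusters shared by UGT2B15 and UGT2B17, enzymes that attach glucuronic acid to androgens, were 10.47 on the control array and 7.47 at 24 h, a difference of -3.00, and a cluster shared by UGT2B10, UGT2B28 and UGT2B11 was 9.55 on the control array and 6.92 at 24 h. A cluster shared by histone H3 genes, HIST1H3I among them, was 10.37 on the control array and 7.36 at 24 h. On the increasing side, clusters shared by TMSB4X (thymosin beta 4, which binds actin) and its copies differed by 1.66 to 1.75, and a cluster shared by CCPG1 and DYX1C1 was 6.65 on the control array and 8.54 at 24 h.

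Some further genes that the publication discusses lay within 2-fold at 24 h. FAS, the death receptor, was 6.32 on the control array, 6.34 at 3 h and 7.06 at 24 h. The publication lists FAS as more than 2-fold higher at 24 h, which the values used here do not reach. AKT1, a survival kinase, was 9.10, 9.04 and 8.38 on the same arrays. MAP3K5 (ASK1), MAPK8 (JNK1) and MAPK14 (p38 alpha) had differences of 0.28, -0.09 and 0.05, and MAPK9 (JNK2) and MAPK3 (ERK1) had equal values on the control and 24 h arrays. EIF2S1, the gene of eIF2 alpha, differed by -0.31, GSK3B by 0.19 and CDKN2A by -0.04. The arrays read RNA and not the phosphorylation that controls these kinases.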
